A study of Drosophila melanogaster with 2 samples.

Results

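The 35 aminoacyl-tRNA synthetase genes of Drosophila melanogaster were examined for chromatin recovered with the protein CG18476 in embryos. They were picked from the 13945 protein-coding genes on chromosome arms 2L, 2R, 3L, 3R, 4 and X by symbol, as an amino acid abbreviation followed by RS, together with GluProRS, alpha-PheRS and beta-PheRS. The 20 symbols without the suffix -m were taken as cytoplasmic genes and the 15 with it as mitochondrial genes. Chromatin immunoprecipitation with sequencing had been done on whole embryos of 0 to 24 h, both sexes pooled, from 1 transgenic line that stably expressed CG18476 fused at its C terminus to eGFP. The precipitation was directed at GFP by its description, although the antibody field of the labels reads CG18476, and the 2 libraries are biological replicates of this 1 group, with no other genotype or treatment to compare. Sonicated fragments of 200 to 800 bp from all tissues and stages of the embryo were mixed in each library, so a signal is an average over them. No untagged strain was analysed here.

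Aminoacyl-tRNA synthetases join each amino acid to its transfer RNAs and so set the meaning of the genetic code. Cytoplasmic enzymes serve the ribosomes that translate nuclear messages, while mitochondrial enzymes, also encoded in the nucleus, are imported and serve the ribosomes of the organelle. For some amino acids a single gene can supply both compartments, as is known for the glycyl and lysyl enzymes in humans. In mammals several of the cytoplasmic enzymes assemble with the non-enzymatic proteins AIMP1, AIMP2 and AIMP3 into a multisynthetase complex.

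A promoter peak here is a peak whose summit lies within 500 bp of an annotated transcription start site (TSS) of the gene. The sequences under the main peaks of ThrRS, GluProRS, IleRS and AsnRS and under the strongest mitochondrial region, at ProRS-m, are shown as the DNA at which the signal of these genes was highest, and all 5 are rich in A and T. The window of SerRS, which ranks between ThrRS and GluProRS, lies mostly in an untranslated region and is not printed. Each is the 50 bp on either side of the summit and the summit base itself, 5′ to 3′ on the strand of the synthetase gene, from the RefSeq sequence of the dm6 assembly. Capitals mark the TATA motif TATAAA on either strand.
ThrRS, chr2L:12103486-12103586, plus strand: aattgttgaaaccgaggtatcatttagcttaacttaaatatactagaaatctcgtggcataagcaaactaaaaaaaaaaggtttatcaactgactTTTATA
GluProRS, chr3R:23958489-23958589, minus strand: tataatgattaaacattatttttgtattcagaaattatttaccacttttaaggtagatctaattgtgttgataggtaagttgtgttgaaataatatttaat
IleRS, chr3L:22288452-22288552, plus strand: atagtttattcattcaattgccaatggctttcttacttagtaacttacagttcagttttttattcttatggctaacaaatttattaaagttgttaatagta
AsnRS, chr2L:19131986-19132086, minus strand: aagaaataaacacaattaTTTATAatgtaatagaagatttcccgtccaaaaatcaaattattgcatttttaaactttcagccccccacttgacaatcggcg
ProRS-m, chr3L:2651956-2652056, minus strand: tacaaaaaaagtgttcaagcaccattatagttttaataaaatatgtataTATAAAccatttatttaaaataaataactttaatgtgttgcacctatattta
The G+C content was 27.7% at ThrRS, 20.8% at GluProRS, 24.8% at IleRS, 31.7% at AsnRS and 18.8% at ProRS-m. The median over all 2022 promoter peaks was 31.7%. The windows of the other mitochondrial genes with a region in the pooled reads ran from 18.8% at CysRS-m to 54.5% at ArgRS-m.

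The promoter peaks of the synthetase genes fell in the cytoplasmic class. In the authors' thresholded set, which the submitters derived from both replicates and their pooled reads, 9 of the 20 cytoplasmic genes (45.0%) and 0 of the 15 mitochondrial genes had a promoter peak. Over all protein-coding genes the share was 17.7% (2468 of 13945). The 9 were ThrRS, SerRS, GluProRS, IleRS, AsnRS, AspRS, AlaRS, beta-PheRS and ValRS. The cytoplasmic share lay above the genome-wide share. The mitochondrial count of 0 lay below it, but with only 15 genes it is not far from that share. The difference was not tested, since the list was chosen with results of these data known. The thresholded set held 3995 peaks with signals from 60.6 to 1948. Signal is the authors' deposited value per peak, and its unit is not stated. The lists hold no read counts, so sequencing depth is unknown and no counting error can be attached to a signal. The authors' -log10 q-value was 3.71 at the 6 strongest of the 9 genes, 2.73 at AlaRS, 2.42 at beta-PheRS and 2.33 at ValRS. It was the same at rank 22 (ThrRS) and at rank 1788 (AspRS), so it does not order these 6 genes.

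**Figure D1:**
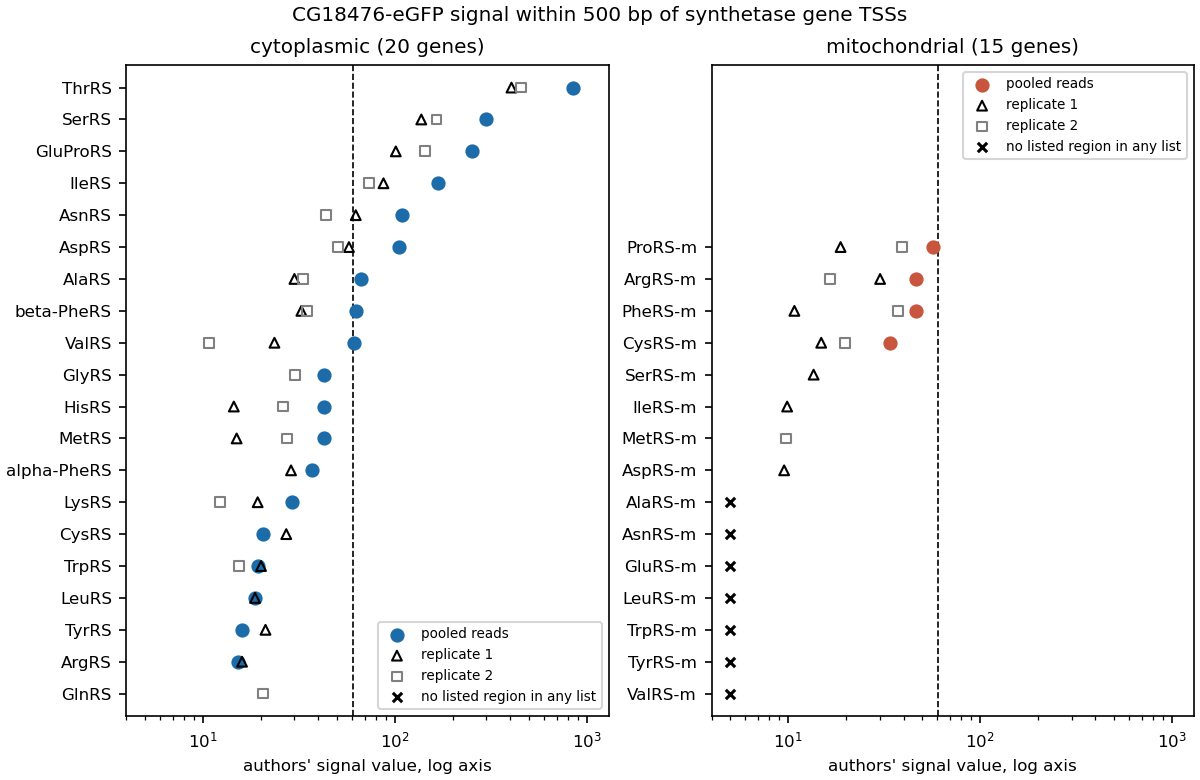
Highest signal (the authors' value, log axis) within 500 bp of a TSS for each of the 20 cytoplasmic (left) and 15 mitochondrial (right) synthetase genes, in the pooled reads (filled circles), replicate 1 (triangles) and replicate 2 (squares); crosses mark genes with no region in any of these lists, and the dashed line is the lowest signal in the thresholded set, 60.6. The 9 genes to the right of the line are all cytoplasmic, and the strongest mitochondrial gene, ProRS-m, lies just left of it at 57.0.

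ThrRS, which encodes threonyl-tRNA synthetase, had the highest signal of the family, 845 in the pooled reads, 405 in replicate 1 and 456 in replicate 2. The peak ranked 22 in the thresholded set, 20 among the regions of replicate 1 and 23 among those of replicate 2, so it was near the top of each. Its summit lay 215 bp upstream of the TSS, in the intergenic stretch printed above, and the replicates placed theirs 166 bp and 252 bp upstream. A second thresholded summit was called in the same region, 200 bp further towards the gene and 15 bp upstream of the TSS, with a signal of 238. Replicate 2 listed a separate summit of signal 104.5 at 8 bp from it, whereas in replicate 1 the nearest summit was that of the main peak, 151 bp away. The secondary summit was thus separated in replicate 2 and not in replicate 1.

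SerRS, the seryl-tRNA synthetase gene, and GluProRS, whose product charges both glutamate and proline transfer RNAs, followed. At SerRS the signal was 299.7 in the pooled reads, 137 in replicate 1 and 165 in replicate 2. At GluProRS it was 251 in the pooled reads, 101.2 in replicate 1 and 143.5 in replicate 2. Both genes ranked between 226 and 423 in every list. IleRS, the isoleucyl gene, had 167 in the pooled reads, 87.3 in replicate 1 and 73.5 in replicate 2. ThrRS and these 3 genes stood above 74.1% or more of the 2468 protein-coding genes with a thresholded promoter peak.

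The asparaginyl and aspartyl genes lay in the middle of the signal range of such genes. AsnRS had a signal of 109 in the pooled reads, 62.6 in replicate 1 and 43.8 in replicate 2. AspRS had 105 in the pooled reads, 57.7 in replicate 1 and 50.8 in replicate 2. Their pooled signals exceeded those of 51.2% and 47.6% of the genes with a peak.

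The last 3 genes lay close to the lowest signal admitted to the set. AlaRS, the alanyl gene, had 66.3 in the pooled reads, 30.0 in replicate 1 and 33.4 in replicate 2. The beta subunit gene of the phenylalanyl enzyme, beta-PheRS, had 62.6 in the pooled reads, 32.6 in replicate 1 and 34.8 in replicate 2. ValRS, the valyl gene, had 61.1 in the pooled reads, 23.6 in replicate 1 and 10.8 in replicate 2. ValRS was also the member nearest to the distance limit, with its summit 498 bp from a TSS. A region of signal 38.0 in replicate 2, with a summit 4 bp from the thresholded one, fell just outside the 500 bp, and the 10.8 belonged to another region. Over the 9 genes the median signal was 109, against 108 over all protein-coding genes with a promoter peak (interquartile range 79.9 to 170). The bound synthetase genes thus had a middle level as a group and a spread from near the lowest signal to rank 22.

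Below the threshold, the authors also deposited long lists of peaks and background regions, with 29999 regions of the pooled reads, 29999 of replicate 1 and 30000 of replicate 2 on these arms. In the pooled list 19 of the 20 cytoplasmic genes (95.0%) and 4 of the 15 mitochondrial genes (26.7%) had a region at the promoter, against 50.1% of all protein-coding genes. In replicate 1 the counts were 18 of 20 (90.0%) and 7 of 15 (46.7%), against 51.7%. In replicate 2 they were 15 of 20 (75.0%) and 5 of 15 (33.3%), against 47.7%. The cytoplasmic share was above the genome-wide share in each list. The mitochondrial share was below it in the pooled list and in replicate 2, and near it in replicate 1 (46.7% against 51.7%). These lists include regions that the submitters call background, so a listing is weaker than a thresholded peak. GlnRS, the glutaminyl gene, was the 1 cytoplasmic gene without a pooled region, and it had a region of signal 20.6 in replicate 2 alone.

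**Figure D2:**
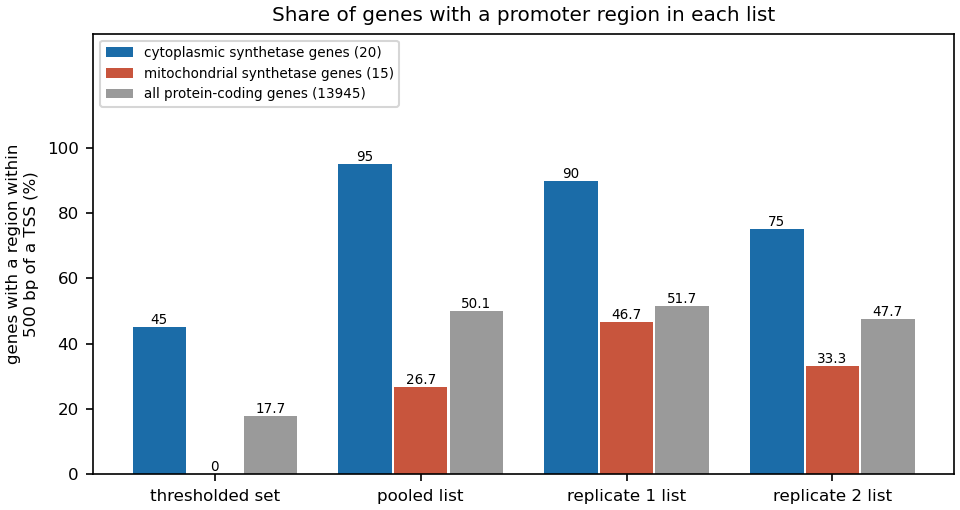
Percentage of genes with a region within 500 bp of a TSS in the thresholded set, the pooled list and each replicate's list, for 20 cytoplasmic synthetase genes (blue), 15 mitochondrial synthetase genes (red) and all 13945 protein-coding genes (grey). The blue bars, from 45.0% to 95.0%, stand above the grey ones in all 4 lists, and the red bars, from 0% to 46.7%, stand below them. In the replicate 1 list the red bar is near the grey one (46.7% against 51.7%).

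Of the 10 cytoplasmic genes with a pooled region but no thresholded peak, the signals ran from 15.3 to 43.0 with a median of 24.9. Over all 4517 genes of that kind the median was 28.1, so these 10 were not strong for subthreshold regions. GlyRS, the glycyl gene, had 43.0 in the pooled reads and 30.1 in replicate 2, with no region in replicate 1. HisRS, the histidyl gene, had 43.0 in the pooled reads, 14.5 in replicate 1 and 26.1 in replicate 2. The alpha subunit gene of the phenylalanyl enzyme, alpha-PheRS, had 36.9 in the pooled reads and 28.8 in replicate 1, and was not listed in replicate 2. Its partner beta-PheRS, at 62.6, was in the thresholded set, so the 2 subunits of the enzyme lay on either side of the threshold. MetRS, the methionyl gene, had 42.7 in the pooled reads, and LysRS, the lysyl gene, had 29.2. CysRS, TrpRS, LeuRS, TyrRS and ArgRS lay between 15.3 and 20.7, close to the lowest signal of that list, 14.5.

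The mitochondrial genes had no thresholded peak, and 4 of the 15 had a pooled region. The pooled signals of these 4, from 33.9 to 57.0, were above the median of 28.1 over all genes with a pooled region only. They were also above the median of 24.9 of the 10 cytoplasmic genes of that kind. ProRS-m, the prolyl gene, had the highest signal, 57.0 in the pooled reads, 18.8 in replicate 1 and 39.2 in replicate 2. ArgRS-m, the arginyl gene, had 46.3 in the pooled reads, 30.2 in replicate 1 and 16.5 in replicate 2. PheRS-m, the phenylalanyl gene, had 46.2 in the pooled reads, 10.8 in replicate 1 and 37.5 in replicate 2. CysRS-m, the cysteinyl gene, had 33.9 in the pooled reads, 14.9 in replicate 1 and 19.8 in replicate 2. The strongest regions of the replicates thus differed by 1.33-fold to 3.46-fold where replicate 2 was the higher, at CysRS-m, ProRS-m (2.09-fold) and PheRS-m. The direction was opposite at ArgRS-m. These ratios need not compare the same site. The summits of replicates 1 and 2 lay 276 and 77 bp upstream at PheRS-m. At ArgRS-m they lay 105 bp upstream and 128 bp downstream. SerRS-m, IleRS-m and AspRS-m were listed in replicate 1 alone, with signals of 13.6, 9.90 and 9.55, and MetRS-m in replicate 2 alone, with 9.76. No region of any list lay at AlaRS-m, AsnRS-m, GluRS-m, LeuRS-m, TrpRS-m, TyrRS-m or ValRS-m. These 7 of 15 genes (46.7%) compare with 0 of the 20 cytoplasmic genes and with 38.3% of all protein-coding genes, so the mitochondrial share without a region was nearer to the genome-wide one than the cytoplasmic share was.

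For 15 amino acids the family holds both a cytoplasmic and a mitochondrial gene, which lets the classes be set side by side with the amino acid held fixed. For 11 of the 15 the pooled list had a promoter region at the cytoplasmic gene and none at the mitochondrial gene, for 4 it had a region at both, and for 0 at the mitochondrial gene alone. The cytoplasmic gene had a pooled region for all 15, so this split only restates the 4 of 15 mitochondrial genes with one. A thresholded peak lay at the cytoplasmic gene for 9 of the 15 amino acids, with GluProRS counted for both glutamate and proline. Where both genes had a pooled region, the mitochondrial gene had the higher pooled signal for arginine, with 46.3 against 15.3. The same held for cysteine, with 33.9 against 20.7. For proline and phenylalanine the cytoplasmic gene had the higher. In replicate 1 cysteine was reversed, with 14.9 at CysRS-m against 27.2 at CysRS, which replicate 2 did not list. In replicate 2 phenylalanine was reversed, with 37.5 at PheRS-m against 34.8 at beta-PheRS. Proline kept its order in both replicates, and arginine in replicate 1, ArgRS not being listed in replicate 2. The other 5 amino acids, glutamine, glycine, histidine, lysine and threonine, have no gene with the suffix -m under the rule, and ThrRS, the strongest of all, is among them. Whether the genes for these 5 also supply mitochondria was not examined, so their cytoplasmic label rests on the symbol alone.

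**Figure D3:**
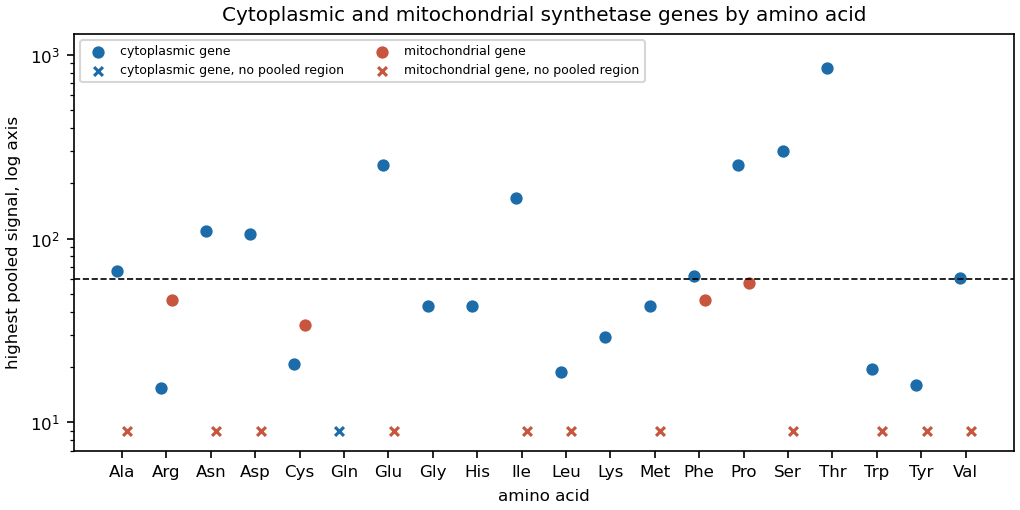
Highest pooled signal (log axis) at the cytoplasmic gene (blue) and the mitochondrial gene (red) for each amino acid; crosses at the bottom are genes without a pooled region, a missing red symbol means that no gene has the suffix -m, and the dashed line marks the lowest thresholded signal, 60.6. Of the 15 amino acids with both genes, arginine (46.3 against 15.3) and cysteine (33.9 against 20.7) are the 2 with the red symbol higher. In replicate 1 cysteine was reversed (14.9 at CysRS-m, 27.2 at CysRS), as was phenylalanine in replicate 2 (37.5 at PheRS-m, 34.8 at beta-PheRS).

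The position of the summits was compared with that at other genes. All 9 thresholded summits lay upstream of the nearest TSS of their synthetase gene, at a median of 163 bp. Over all protein-coding genes with a promoter peak, 89.1% lay upstream and the median position was 151.5 bp upstream. The synthetase summits were therefore placed much like the rest. Among the 14 synthetase genes with a pooled region only, 10 had the summit upstream, close to the 70.4% over all 4517 such genes. Of the 4 others, ArgRS-m had its summit 19 bp downstream, and CysRS, TrpRS and TyrRS had theirs 118, 207 and 245 bp downstream. In replicate 1 the TyrRS summit, of signal 21.2 against 16.0 in the pooled reads, lay 218 bp upstream, and that of ArgRS-m 105 bp upstream. The CysRS and TrpRS summits lay 30 and 207 bp downstream there. In replicate 2 ArgRS-m and TrpRS had theirs 128 and 403 bp downstream, and CysRS and TyrRS were not listed.

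**Figure D4:**
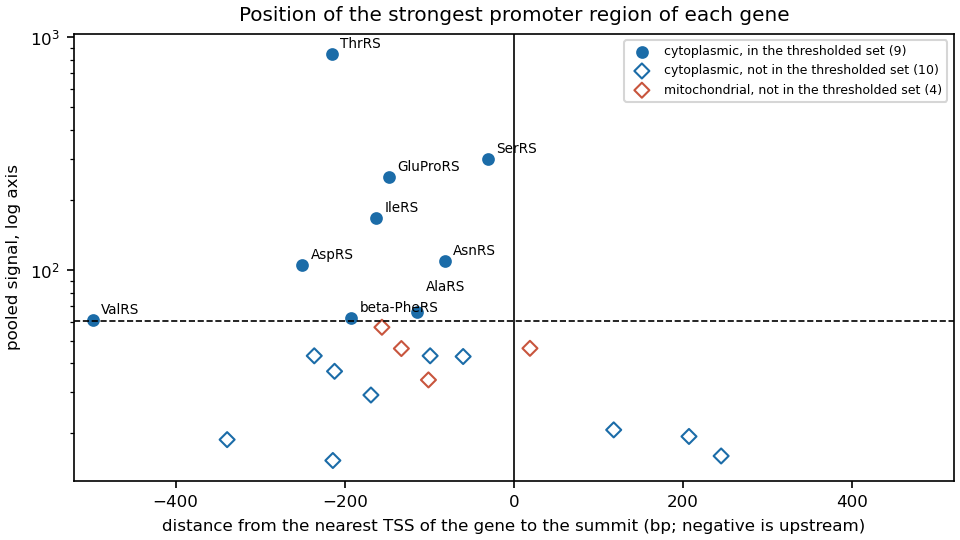
Distance from the nearest TSS of the gene to the summit (x axis, bp, negative upstream) against pooled signal (y axis, log) for the 23 synthetase genes with a pooled promoter region; filled circles are in the thresholded set, open diamonds are not, red is mitochondrial, and the dashed line is 60.6. The 9 filled circles all lie left of 0, from 498 bp (ValRS) to 31 bp (SerRS) upstream.

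A neighbouring gene shared the summit at 7 of the 9 genes, and in all 7 it was a protein-coding gene on the opposite strand. The share over all protein-coding genes with a promoter peak was 60.3%. The summit was nearer to the synthetase TSS at ThrRS (215 bp, against 251 bp to Patsas), IleRS (163 bp, against 307 bp to Hem, which encodes a subunit of the actin-regulating WAVE complex) and AsnRS (82 bp, against 287 bp to DCTN6-p27, a dynactin subunit gene). It was nearer to the neighbour at GluProRS (148 bp, against 112 bp to AP-1sigma, which encodes a subunit of a clathrin adaptor), SerRS (31 bp, against 23 bp to CG17260), AspRS (250 bp, against 196 bp to Nmda1) and ValRS (498 bp, against 15 bp to Kdm4B, a histone demethylase gene). The lists do not give which gene of a pair a peak belongs to, so the signal of these 7 peaks is that of a shared stretch of DNA.

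The remaining summits at AlaRS and beta-PheRS lay in the 3' ends of neighbours, within an annotated 3' UTR of CG13392 and of jar, which encodes a myosin. The AlaRS peak was at chr2L:8381663-8382092 and the beta-PheRS peak at chr3R:24252656-24253085, with summits 114 and 192 bp upstream of the synthetase TSS. The AspRS summit (peak at chr2R:12879819-12880248) lay within introns of AspRS and of the overlapping Nmda1, upstream of a TSS that is not its outermost, and the SerRS summit (peak at chr2L:3037331-3037540) in a 5' UTR of CG17260. The GluProRS peak was at chr3R:23958427-23958680, the ThrRS region at chr2L:12103272-12103808, the IleRS peak at chr3L:22288287-22288716, the AsnRS peak at chr2L:19131821-19132250 and the ValRS peak at chr2R:13198137-13198566, all with intergenic summits.

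The layout of the promoters differed between the classes. A protein-coding TSS on the opposite strand lay within 1000 bp upstream for 17 of the 20 cytoplasmic genes and 7 of the 15 mitochondrial genes. Such a neighbour was present at 5052 of all 13945 protein-coding genes. Over all protein-coding genes, 32.2% of the 5052 with such a neighbour had a thresholded promoter peak, and 9.47% of the 8893 without. Among the genes with such a neighbour, 7 of 17 cytoplasmic (41.2%) and 0 of 7 mitochondrial genes had a peak. Among those without, 2 of 3 cytoplasmic genes, AlaRS and beta-PheRS, and 0 of 8 mitochondrial genes had one. The cytoplasmic share was above the mitochondrial one in either layout, on small numbers. With such a neighbour, the cytoplasmic 41.2% was closer to its genome-wide share, 32.2%, than the 45.0% of all cytoplasmic genes was to 17.7%.

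Annotated TSS number moved with the peaks as well. Of the cytoplasmic genes with 2 or more annotated TSSs, 6 of 7 had a thresholded peak, LysRS being the exception, against 29.5% of all such genes. Of the 13 with 1 TSS, 3 had a peak (IleRS, AsnRS and beta-PheRS), against 13.4% of all such genes. The mitochondrial counts were 0 of 2 and 0 of 13. More TSSs give a gene more places to meet the rule, and the part of this in the counts was not tested. Counting from the outermost TSS only, which gives each gene 1 place, is described next.

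Other rules gave between 6 and 10 synthetase genes with a peak, and their membership shifted. With 1 TSS per gene, its outermost, 8 cytoplasmic genes kept a peak (genome-wide share 15.6%), AspRS being lost. With a distance of 250 bp 8 did (13.9%), ValRS being lost, and in the upper part of the set by signal, 1997 peaks, 6 did (10.2%). With 1000 bp the 9 cytoplasmic genes were joined by the first mitochondrial gene, LeuRS-m, with a peak of signal 305 at 931 bp (20.4%). In replicate 2 alone, taking its 3995 strongest regions, 7 cytoplasmic genes (35.0%) and 2 mitochondrial genes, ProRS-m and PheRS-m (13.3%), had a promoter region. The genome-wide share was 17.0%, so the mitochondrial share was near it. In replicate 1 alone, taken the same way, 9 cytoplasmic genes (45.0%), alpha-PheRS among them, had one. So did 1 mitochondrial gene, ArgRS-m (6.67%), and the genome-wide share was 18.6%. AsnRS, GluProRS, IleRS, SerRS and ThrRS had a peak under all 8 other rules run. Not all of these rules are separate checks. The 3995 strongest regions of the pooled list gave the same 9 genes as the main rule. The upper part of the set keeps any gene whose peak ranks within the first 1997.

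The replicates were compared at the 9 genes with a thresholded peak. That set was derived from the reproducibility of peaks between these same replicates, so agreement is partly fixed in advance at these 9 genes. The signal was higher in replicate 2 at 5 of them and in replicate 1 at 4, with ratios of replicate 2 to replicate 1 from 0.456 at ValRS to 1.42 at GluProRS. The median ratio was 1.07, against 1.20 (interquartile range 0.960 to 1.48) over 2453 genes with a thresholded promoter peak and a region in both replicates. All 9 except ValRS lay between 0.700, at AsnRS, and 1.42, at GluProRS. Using instead the regions that overlapped the thresholded peak by at least 0.5 of both lengths, the ratio at ValRS was 1.61, and the replicates' signals summed to 0.957 to 1.08 of the pooled signal at the 8 genes with such regions in both. Added together, the 2 libraries thus came near the pooled value, which was called on the same reads. The ratios include any difference in depth between the libraries. Among the synthetase genes listed in both replicates without a thresholded peak, the ratio ran from 0.546 at ArgRS-m to 3.46 at PheRS-m.

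**Figure D5:**
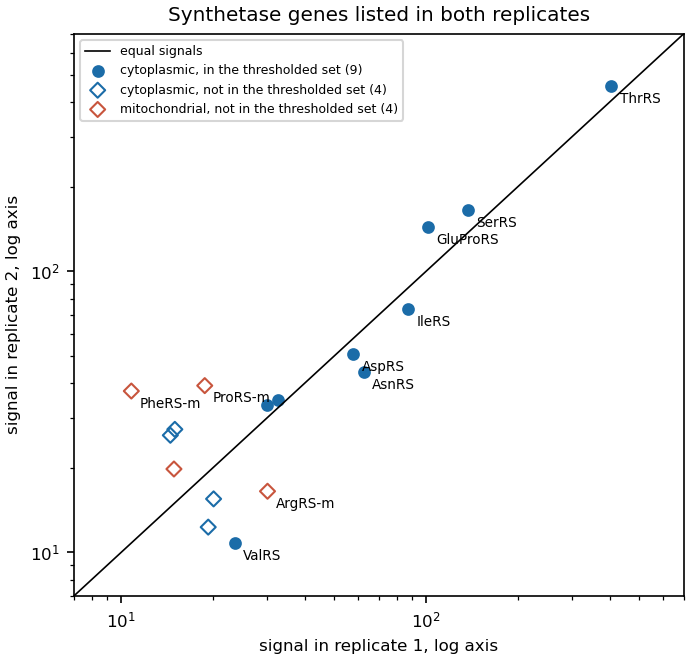
Signal in replicate 1 (x axis) against replicate 2 (y axis), both log axes, for the 17 synthetase genes with a promoter region in both lists; filled circles are in the thresholded set, open diamonds are not, red is mitochondrial, and the line marks equal signals. The strongest genes follow the line, from ThrRS (405 and 456) to AspRS (57.7 and 50.8), and the weaker regions scatter more, as PheRS-m does (10.8 and 37.5). Each value is the strongest region of that list within 500 bp, and the summits can differ, as at LysRS (136 bp upstream and 415 bp downstream).

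Motifs were searched on both strands within 50 bp of the 9 thresholded summits and beside this in all 2022 promoter peaks. The TATA letters TATAAA occurred at 3, AsnRS, SerRS and ThrRS, against 24.0% of all promoter peaks. A run of 8 A occurred at ThrRS, against 7.42%, and the letters GGTCACAC, the core of the promoter element called Motif 1, at ValRS, against 0.989%. The DRE letters TATCGATA (2.42% of all), the E-box CACGTG bound by Myc (0.940%), the CA repeat CACACACA (0.791%) and the ATF4 response element known from mammals, TGATGCAA (0.297%), or with any base at the sixth place TGATGNAA (1.38%, which includes the former), were found at 0 of the 9. The median G+C content of the 9 windows was 27.7%, from 15.8% at beta-PheRS to 42.6% at ValRS, against 31.7% over the 2022 peaks.

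The whole promoters, from 250 bp upstream to 50 bp downstream of the outermost TSS, were searched in all 35 genes and in all 13945. DRE letters were in 4 cytoplasmic promoters (AlaRS, ArgRS, IleRS and TrpRS) and 1 mitochondrial promoter (PheRS-m), against 9.36% of all promoters. Of these 5 genes, AlaRS and IleRS had a thresholded peak. TATA letters were in 12 of 20 cytoplasmic and 7 of 15 mitochondrial promoters, against 45.8%. The Motif 1 core was in 2 of 20 and 3 of 15, against 7.70%, and TGATGNAA in 2 of 20 (CysRS and beta-PheRS) and 0 of 15, against 4.07%. The E-box was in 1 of each class (GlnRS and LeuRS-m), against 4.20%, a run of 8 A in 5 of each, against 16.0%, the CA repeat in 1 (ArgRS) and 0, against 4.02%, and TGATGCAA in 0 of either, against 0.817%.

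A list of 11 related genes was examined, 9 of them for factors of tRNA charging or for relatives of the enzymes, and Gcn2 and crc for the response to uncharged transfer RNA. A thresholded promoter peak lay at 3 of them (27.3%, against 17.7% of all genes) and a pooled region at 8 (72.7%, against 50.1%). Gcn2, whose kinase responds to uncharged transfer RNA, had a signal of 78.0 in the pooled reads, 30.3 in replicate 1 and 49.2 in replicate 2. GatA, a subunit gene of the amidotransferase that makes glutaminyl-tRNA in mitochondria, had 69.2 in the pooled reads, 34.7 in replicate 1 and 29.5 in replicate 2. The gene crc, which encodes the fly ATF4, had 62.9 in the pooled reads, 33.3 in replicate 1 and 26.1 in replicate 2. Only GatA of these 3 is among the 9 listed for factors of tRNA charging or relatives of the enzymes. All 3 lay near the lowest signal admitted to the set. The seryl-tRNA synthetase paralogue gene Slimp had 51.7 in the pooled reads, below it. GatB, GatC, AIMP2 and the D-aminoacyl-tRNA deacylase gene Dtd had pooled signals between 16.3 and 40.3. AIMP1, AIMP3 and CG1750, the gene listed for methionyl-tRNA formyltransferase, had no pooled region.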

How the data were processed

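The authors, by the README texts among the deposited files, called peaks and background regions on each replicate and on the pooled reads against a control, and derived the IDR (irreproducible discovery rate) thresholded set from those 3 lists. The sources used here name no aligner, peak caller or threshold. The dm6 lists were used, with the deposited signal value per peak, in the authors' units, and the deposited -log10 q-value was used as a description of single peaks only. The dm3 lists were not used here. Genes and TSSs came from Ensembl release 115, without transposable elements, and sequence from the RefSeq assembly of the same build, whose chromosome lengths contain every dm6 region. Each gene was given its strongest region with a summit within 500 bp of any TSS. The assignment was tested on 200 simulated peaks and recovered 208 of 208 gene and peak pairs. The design holds 1 group and therefore no comparison of groups, and counts are set beside the share over all protein-coding genes. Depth is unknown from the lists. The genes, lists, motifs and alternatives were chosen with earlier results of these data known. All members may be named; the 5 strongest without a thresholded peak, neighbours at a shared summit and listed partners with a peak are named by rule, and other genes were named after their values were seen. SLIMP was matched to Slimp by synonym. Alternatives were other distances, midpoints, 1 TSS per gene, the upper part of the set, the pooled list, each replicate alone, overlap-matched regions and a wider motif window. Calculations used Python 3.11.15, NumPy 2.4.6, pandas 2.3.3, Biopython 1.88 and Matplotlib 3.10.9.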

Additional observations from a re-analysis of the deposited data

How the results depend on the processing

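The 9 synthetase genes with a promoter peak became 6 to 10 under the 8 alternatives, and the 9 cytoplasmic genes became 6 to 9, within 1.5 times in each. The count of 0 mitochondrial genes became 1 at a distance of 1000 bp (LeuRS-m) and 1 to 2 when a replicate was left out, 1 without replicate 2 and 2 without replicate 1. The cause was not tested. It was also 0 with peak midpoints. With 250 bp, the outermost TSS, the upper part of the set or the strongest pooled regions it could not rise, since these rules take subsets of the same peaks and genes or the same peaks. The median signal of 109 became 138 at 250 bp, at 1000 bp and with the outermost TSS only, since 1 gene below the median left (ValRS or AspRS) or 1 above it joined (LeuRS-m). It ran from 50.8 to 60.1 when a replicate was left out, in units of 1 library instead of the pooled reads. The median ratio of the replicates was 1.09 with overlap-matched regions. In a window reaching 100 bp on either side, TATA letters were at 5 of 9 summits instead of 3 and runs of A at 2 instead of 1, while the other motif counts were the same. No paired analysis was possible because there is only 1 group. Depth is unknown, so regions near the lowest listed signal cannot be told from sampling.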

Other observations

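Among the synthetase genes without a promoter peak, LeuRS-m and alpha-PheRS had the nearest thresholded peaks. The nearest thresholded peak to a TSS of the 11 cytoplasmic genes without a promoter peak lay at a median of 6736 bp (1863 to 23830 bp), and that to the 15 mitochondrial genes at 7196 bp (931 to 18121 bp), against 11678 bp over all 11477 protein-coding genes without a promoter peak. The peak 931 bp from the TSS of LeuRS-m, the mitochondrial leucyl gene, was at chr3L:4824784-4825135 with a signal of 305, more than any mitochondrial synthetase promoter, and lay within 500 bp of no annotated TSS. The peak 1863 bp from the TSS of alpha-PheRS was at chrX:8143524-8143953 with a signal of 128 and is a promoter peak of CG17982.

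Grouped by the textbook class of the catalytic domain, which was chosen after the values were seen, thresholded peaks lay at 6 of the 10 cytoplasmic class II genes and at 2 of the 9 class I genes, IleRS and ValRS, the second count being near the 17.7% over all protein-coding genes. GluProRS, with a domain of each class, had a peak. A pooled region lay at 10 of 10 class II and 8 of 9 class I genes, against 50.1% of all genes. In the mitochondrial genes the thresholded counts were 0 of 9 class I and 0 of 6 class II genes, and the pooled counts 2 and 2. The difference between the domain classes was not tested.

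By chromosome arm, thresholded peaks lay at 4 of the 6 synthetase genes on 2L (17.7% of all genes on that arm), 2 of 8 on 2R (16.5%), 1 of 10 on 3L (18.8%), 2 of 7 on 3R (19.4%) and 0 of 4 on X (15.5%). With so few genes on an arm, a count of 0 or 1 is near these shares. All 4 X-linked genes, ArgRS, LysRS, alpha-PheRS and HisRS, are cytoplasmic, and all had a pooled region, with signals from 15.3 to 43.0.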
